A study of Homo sapiens with 6 samples.

Results

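The clustered protocadherin genes are a family of cell-surface adhesion genes that lie side by side on human chromosome 5. Members were all genes of the count table whose symbol is that of an alpha, beta or gamma protocadherin, which gave 54 of 58395 genes: 16 in the alpha cluster, 16 in the beta cluster and 22 in the gamma cluster. RNA sequencing was done on SH-SY5Y, an established human neuroblastoma line, in 6 libraries: 3 labelled control, from cells given an empty pcDNA3.1 vector, and 3 labelled Tau, from cells given the same vector with the cDNA of Tau 0N4R. All cells of both groups were transfected and, from the next day, differentiated with 10 µM retinoic acid for 5 days and then with 50 ng/mL BDNF for 15 days, by the study's methods. The study measured how gene expression differs with Tau overexpression, and the comparison made here is of the levels of these genes between both groups. Nothing in the sources used here says that the 3 libraries of a group came from separate cultures, so p-values measure only the spread between these libraries.

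Clustered protocadherins are membrane proteins with extracellular cadherin repeats that bind the same isoform on a facing membrane. Single neurons express their own subset, and the resulting surface code lets a neuron tell its own branches from those of its neighbours. Each promoter is chosen largely at random in a neuron, through loops between the promoter and a distant enhancer that need the DNA-binding protein CTCF and the ring complex cohesin, and unused promoters are methylated. The last members of the alpha and gamma clusters, called C-type, are expressed more evenly from cell to cell. A bulk library adds up many cells, so fewer cells using a gene and less RNA per cell cannot be told apart.

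The layout of the locus sets what a read count can say. All 54 members are on the plus strand of GRCh38, from chr5:140786136-141512977, a span of 727 kb. Every alpha and gamma gene has a first exon of its own, which encodes the extracellular part, and this exon is joined to constant exons that the whole cluster shares and that encode the common cytoplasmic end. In GENCODE 44 the 3 constant exons of the alpha cluster, of 59, 89 and 2721 bases, belong to 15 of its 16 genes, the exception being the pseudogene PCDHA14, and the 3 of the gamma cluster, of 59, 89 and 2029 bases, belong to all 22. Beta genes have no constant exons. The first constant exon of each cluster is shown because a read inside it fits every gene of its cluster, with capitals marking the bases that are identical in both.
alpha constant exon 1, chr5:140978949-140979007: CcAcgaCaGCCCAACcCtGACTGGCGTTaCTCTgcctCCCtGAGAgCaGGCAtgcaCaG
gamma constant exon 1, chr5:141494807-141494865: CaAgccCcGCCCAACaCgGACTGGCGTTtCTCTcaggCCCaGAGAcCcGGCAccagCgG
The pair shares 39 of 59 bases, or 66.1%, whereas the second constant exons share 29 of 89 bases, or 32.6%. In the count table PCDHA2, which has all 3 alpha constant exons, and PCDHA14 had 0 reads in all 6 libraries, so reads of the shared exons were not given to every gene that holds them. Levels are therefore given as CPM (counts per library total, scaled for library composition) per kilobase of exon that no other gene covers on the same strand. This takes length into account, but not which transcript form is used or how much of the sequence is repeated elsewhere.

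Promoter sequence is given next because promoter choice decides which member of a cluster is transcribed. RefSeq windows on GRCh38, from 250 bases before to 50 bases after the start, were at hand for 47 of the 54 members; those without one were PCDHA3, PCDHA13, PCDHA14, PCDHB6, PCDHB11, PCDHGA12 and PCDHGC5. In each cluster the string of 8 bases found in the most members was located, and both strands of all 35116 windows were then searched for it. The alpha string ATGTCGCT was in 9 of 13 alpha windows, the beta string GGTGGCGC in 13 of 14 beta windows, and the gamma string GCCGCTGT in 13 of 25 gamma windows, which belong to 11 of 20 genes. Over all windows the shares were 0.234, 2.23 and 1.63%; since each string was picked for being the most common in its own cluster, the excess follows from the choice and is no test. No whole string occurred in the windows of another cluster, but the strings are alike in part. The alpha and gamma strings both hold CGCT, and in the beta windows shown the string is followed by T, which completes the same bases. Where strings tied for the most members, the first in alphabetical order was taken. In every member that had it the string was on the sense strand, and its median place was 52, 66 and 70 bases before the start in the alpha, beta and gamma clusters. Windows that hold the string are shown for members with high levels in each cluster and for PCDHGA1, with the string in capitals. PCDHAC2, with 0.132 CPM per kilobase of unshared exon over all libraries against 0.129 for PCDHA7, lacks the string and is not shown.
PCDHA10, chr5:140855841-140855872: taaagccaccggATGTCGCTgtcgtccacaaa
PCDHA7, chr5:140834172-140834203: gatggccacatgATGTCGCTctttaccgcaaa
PCDHB4, chr5:141121722-141121753: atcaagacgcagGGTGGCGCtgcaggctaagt
PCDHB14, chr5:141223262-141223293: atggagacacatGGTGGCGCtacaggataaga
PCDHB9, chr5:141187073-141187104: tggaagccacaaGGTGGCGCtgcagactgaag
PCDHGC3, chr5:141475882-141475913: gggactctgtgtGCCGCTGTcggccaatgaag
PCDHGC4, chr5:141484954-141484985: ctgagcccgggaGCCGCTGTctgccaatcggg
PCDHGA7, chr5:141382651-141382682: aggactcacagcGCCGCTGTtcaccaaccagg
PCDHGA1, chr5:141330405-141330436: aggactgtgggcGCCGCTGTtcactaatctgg
The only beta member with a window and without the string was PCDHB1, which had 2 reads in all. Among alpha members the alpha string was absent from the windows of PCDHA9, PCDHA11, PCDHAC1 and PCDHAC2. The RefSeq windows of PCDHA9 and PCDHA11 begin at chr5:140848132 and chr5:140868707, past the GENCODE 44 starts of these genes at 140847772 and 140868183. Bases before those GENCODE starts were therefore not searched for PCDHA9 and PCDHA11. A matching string is a description of the window and not evidence of a bound factor.

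The libraries held 27945481 to 31706415 reads in genes, of which the clusters took 0.00359 to 0.00924%. MAPT, the gene of Tau, checks the labels at the level of RNA only. It was not higher in the libraries labelled Tau. Those labelled control had 34.8, 51.9 and 41.5 CPM, and those labelled Tau had 34.6, 32.6 and 34.6 CPM. Its log2 fold change was -0.33 (adjusted p = 0.239 in edgeR), and it was not called. The study also measured Tau protein in control and Tau cells by Western blot, which these libraries cannot show. Mitochondrial genes took 30.5 to 45.6% of reads in the control and 45.8 to 57.8% in the Tau libraries, and the rank correlation across genes of a gene's GC content with its log2 ratio to the mean library ran from -0.52 to 0.12 in the control and from 0.25 to 0.44 in the Tau libraries. Both quantities separated the groups, and their part in the results below was tested only by the alternatives in the closing section. Among markers of the noradrenergic neuroblastoma state, PHOX2A, HAND2, GATA3, ISL1 and DBH were tested while TH, which makes catecholamines, was too low. Of the glial markers SOX10 and GFAP had no read in any library.

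Most of the reads of the family came from the beta cluster. Over the 6 libraries the beta genes held 8526 of 10356 reads, or 82.3%, the gamma genes 1127, or 10.9%, and the alpha genes 703, or 6.79%. A read was seen for 52 of the 54 members, and 33 had reads in every library. The filter on low counts left 25 members: 15 of 16 beta, 6 of 22 gamma and 4 of 16 alpha genes. The 29 others had 0 to 46 reads in all, with a median of 14, and none was called when the filter was dropped.

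**Figure D1:**
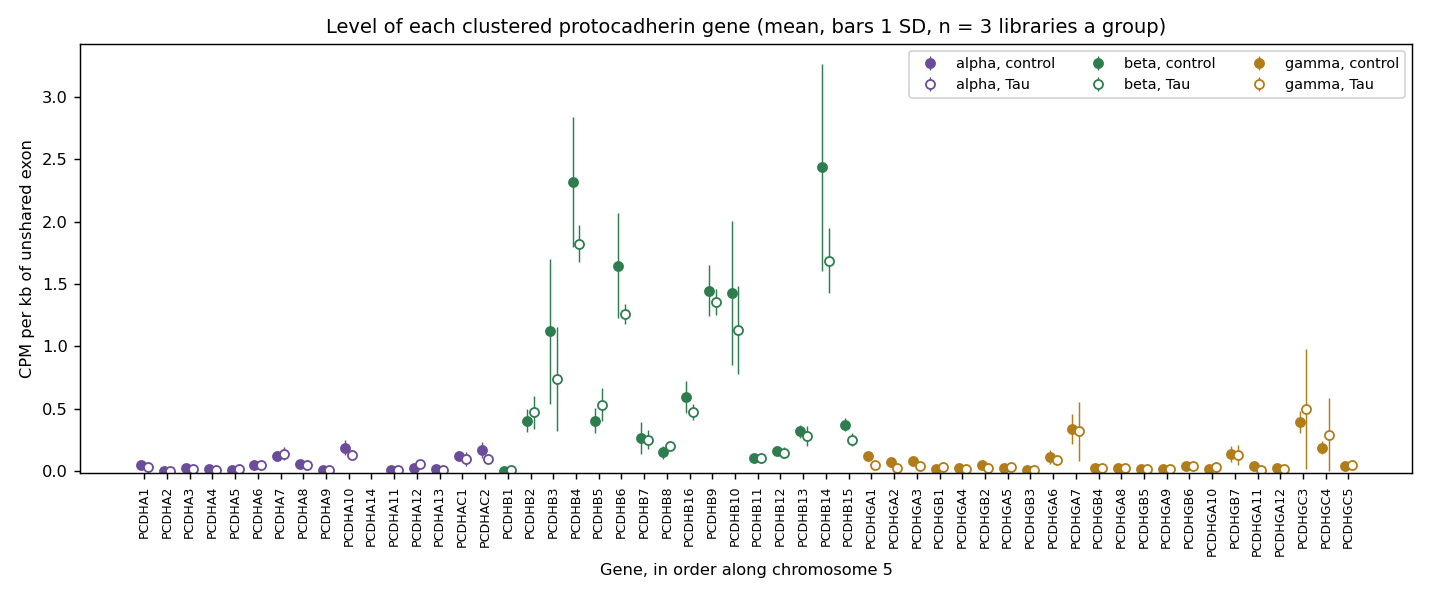
Level of each of the 54 genes, in their order along the chromosome, in CPM per kilobase of unshared exon. Filled points are the mean of the control and open points that of the Tau libraries, bars are 1 SD over 3 libraries, colours mark the cluster, and PCDHA14 has no point because it has no unshared base; PCDHB4 and PCDHB14 stand highest and almost all alpha and gamma genes lie near 0.

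Within the beta cluster the level was uneven. Per kilobase of unshared exon, PCDHB14 had 2.44 ± 0.828 CPM (SD, n = 3) in the control and 1.69 ± 0.261 in the Tau libraries, and PCDHB4 had 2.32 ± 0.522 and 1.82 ± 0.149. After these came PCDHB6 with 1.65 in control and 1.26 in Tau libraries, PCDHB9 with 1.45 and 1.36, PCDHB10 with 1.43 and 1.13, and PCDHB3 with 1.12 and 0.737 CPM per kilobase. In the control libraries PCDHB14 and PCDHB4 differed by less than the SD of either, as did neighbours from PCDHB6 to PCDHB3, while the step from PCDHB4 to PCDHB6 was larger than both SDs. PCDHB14 and PCDHB4 together held 37.3% of beta reads, and with PCDHB9, PCDHB6 and PCDHB10 the share was 70.0%. The share of the 5 leading genes was 66.5 to 71.6% over the 6 libraries. At the other end PCDHB1, the first gene of the cluster, had 0 reads in every control library and 0, 1 and 1 in those labelled Tau.

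The alpha cluster was low and led by 1 gene. PCDHA10 held 44.5% of the alpha reads and 0.185 CPM per kilobase in the control and 0.129 in the Tau libraries; its annotation counts 10355 unshared bases, the second longest of the family, so a transcript without the long form would give a higher value. PCDHAC2, which in mouse sets the spacing of serotonergic axons, had 0.165 and 0.0988, PCDHAC1 had 0.122 and 0.0960, and PCDHA7 had 0.120 and 0.138 CPM per kilobase. The 12 alpha genes that were not tested had at most 29 reads each over all libraries.

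In the gamma cluster the C-type genes PCDHGC3 and PCDHGC4 and the A-type gene PCDHGA7 stood out. Per kilobase, PCDHGC3, whose cytoplasmic part binds Axin1 in mouse, had 0.394 CPM in the control and 0.498 in the Tau libraries, PCDHGA7 had 0.336 and 0.317, and PCDHGC4, needed for the survival of cortical interneurons in mouse, had 0.186 and 0.292. PCDHGC5, the last gene of the locus, was low, with 6, 1 and 4 reads in the control and 3, 4 and 3 in the Tau libraries. The 5 C-type genes of both clusters held 5.72% of all reads of the family.

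The comparison of Tau with control libraries called none of the 25 tested members. In edgeR's quasi-likelihood test, at a false discovery rate under 0.1 and a log2 fold change over 0.5 in either direction, 17.8% of the 16778 tested genes were called, 9.38% higher and 8.42% lower in Tau libraries. At an unadjusted p under 0.05 there was 1 member, PCDHGA1, against 29.1% of all tested genes. DESeq2 and limma-voom, which called 19.2 and 17.1% of all tested genes, also called 0 members. Limma on log2(RPM + 0.5), at 19.5%, called PCDHGA1 as lower, and total counts as the library size in edgeR, at 20.5%, called PCDHGA1 and PCDHB14 as lower. Most fitted values lay below 0, in 19 of 25 members against 52.3% of all tested genes, and their median log2 fold change was -0.21 against -0.03 over all tested genes. The direction turned with the mitochondrial share as a covariate, where 11 of 25 lay below 0 and the median was 0.15, and without control replicate 2 it was 13 of 25 with a median of -0.12. In 3 members, PCDHB6, PCDHB15 and PCDHGA1, all Tau libraries were below all control libraries, which held for 16.8% of all tested genes, and in none were all Tau libraries above.

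**Figure D2:**
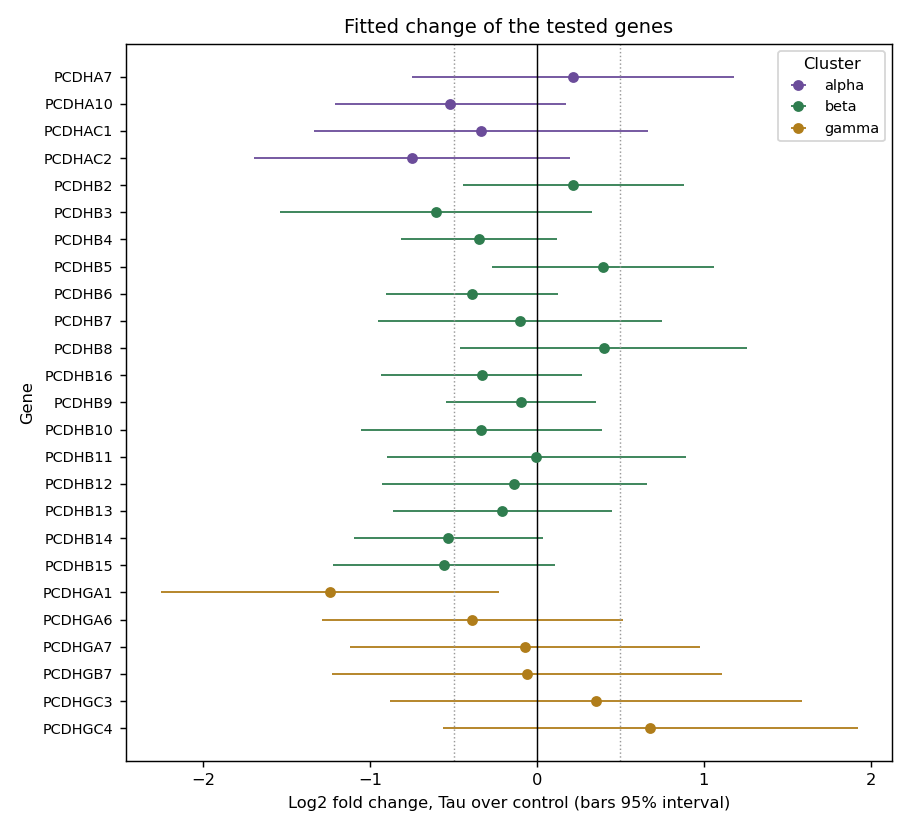
Fitted log2 fold change of the 25 tested members, Tau over control, with a 95% interval derived from the edgeR F test. Dotted lines mark 0.5 in each direction. The interval excludes 0 only for PCDHGA1, and none lies wholly within the dotted lines.

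The precision of these estimates bounds what can be said. The 95% interval of the fold change stayed within 1 log2 unit, a doubling or halving, in 9 of 25 members, all of them beta genes, and within 0.5 in none. It reached below -1 in 11 members and above 1 in 6. Relative spread between replicates, as edgeR's biological coefficient of variation, had a median of 0.235 in tested beta, 0.266 in alpha and 0.362 in gamma genes, against 0.20 over all tested genes. Genes of similar level are a closer comparison. The trend that edgeR fits to this spread by level had medians of 0.252, 0.275 and 0.272 for the same beta, alpha and gamma genes. Of 25 members 10 lay above this trend: 4 beta, 1 alpha and 5 gamma genes.

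Summed over all 16 genes, the beta cluster stood at 53.9, 58.4 and 35.9 CPM in control libraries, against 43.7, 41.0 and 35.7 with Tau. Control replicates 1 and 2 stood above all Tau libraries and control replicate 3 among them, so the groups overlapped. Control replicate 3 was the lowest control library in 12 of the 15 tested beta genes.

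PCDHB14, the gene with the most reads, showed the same division. It had 12.6, 12.1 and 6.30 CPM in the control and 6.61, 8.45 and 6.45 in the Tau libraries, a log2 fold change of -0.53 with an SE of 0.26 (adjusted p = 0.197 in edgeR). The control libraries 1 and 2 were above every Tau library, while the third was below all of them. PCDHB4 had 10.3, 9.65 and 6.57 against 7.39, 7.14 and 6.31 CPM, with a log2 fold change of -0.35 and a 95% interval of -0.82 to 0.12. Without control replicate 3 both passed the thresholds as lower in Tau libraries, as did PCDHA10 and PCDHGA1, 4 members of 25 beside 29.9% of all genes tested in that fit. Without control replicate 1 or 2, or Tau replicate 1, 2 or 3, no member passed, and 1.47, 10.3, 11.5, 6.29 and 7.04% of all genes did. The other settings run also called no member: a false discovery rate of 0.05 (9.63% of all genes), no fold threshold (18.4%), other scalings (17.5 and 17.6%), no low-count filter (14.1%, with 21.7% at an unadjusted p under 0.05) or a stricter one (18.2%), the GC trend removed (11.1%), a factor for the replicate number without and with that trend removed (13.2 and 4.2%), and the mitochondrial share as a covariate (7.88%).

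PCDHB15 and PCDHB6 were the beta genes whose groups did not overlap. PCDHB15 had 1.55, 1.25 and 1.19 CPM in the control and 1.04, 0.966 and 0.697 in the Tau libraries (log2 fold change -0.56, SE 0.31, adjusted p = 0.247 in edgeR). PCDHB6 had 4.42, 6.89 and 4.66 against 3.96, 4.37 and 3.89 CPM, with a 95% interval of the log2 fold change of -0.91 to 0.12. Neither passed the test. PCDHB3 varied most among beta genes, with 3.52, 5.83 and 1.94 CPM in the control and 4.03, 1.30 and 2.09 in the Tau libraries, so both groups spanned a wide and shared range.

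The beta genes with the fitted values above 0 were PCDHB5, PCDHB8 and PCDHB2. PCDHB5 had 1.73, 1.06 and 1.33 CPM in the control and 1.68, 2.31 and 1.43 in the Tau libraries, a log2 fold change of 0.40 with an interval of -0.27 to 1.06. PCDHB8, with 0.525, 0.330 and 0.272 against 0.470, 0.588 and 0.440 CPM, had an interval of -0.46 to 1.26. For PCDHB2 it ran from -0.44 to 0.88, and in all 3 genes the groups overlapped. PCDHB9 and PCDHB10 also overlapped, with intervals of -0.55 to 0.35 and -1.06 to 0.39.

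**Figure D3:**
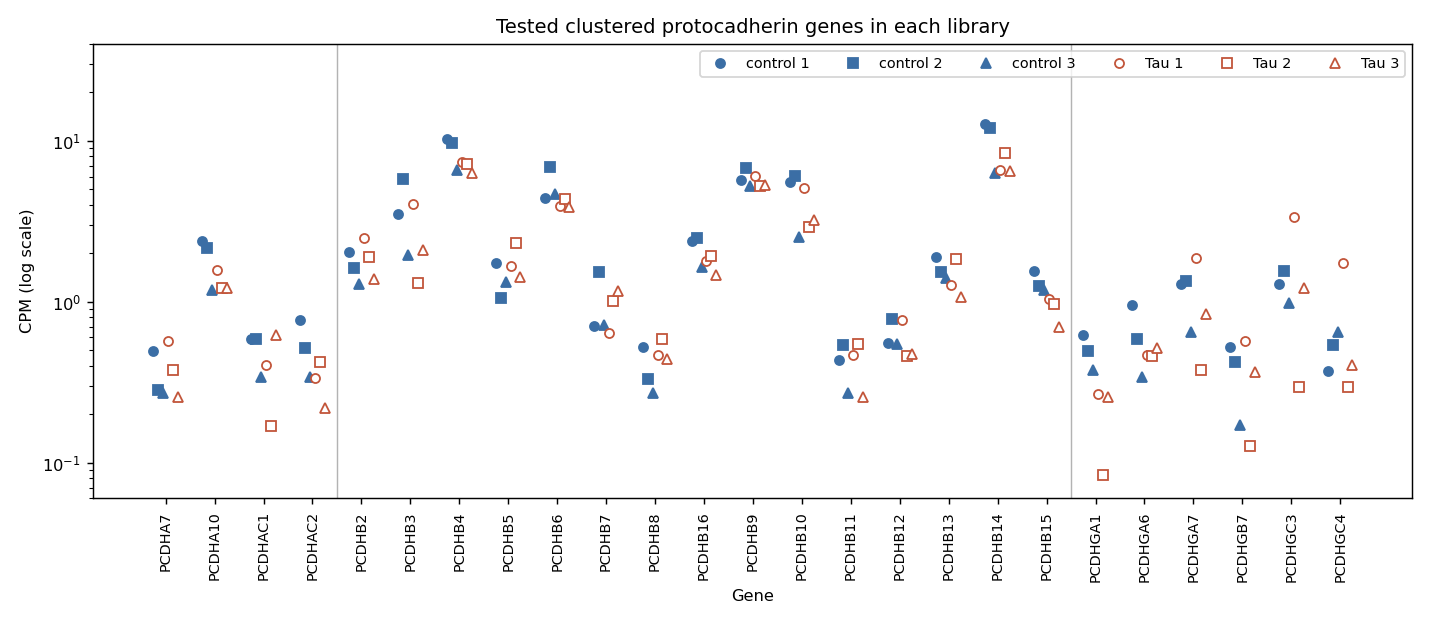
CPM of the 25 tested members in each library, on a log axis, in order along the chromosome with lines between the clusters. Filled blue symbols are control and open red symbols Tau libraries, and the shape marks the replicate number; control replicate 3 lies low in PCDHB14 and Tau replicate 1 lies high in PCDHGC3, PCDHGC4 and PCDHGA7.

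In the alpha cluster PCDHA10 had 2.38, 2.17 and 1.19 CPM in the control and 1.58, 1.22 and 1.21 in the Tau libraries (log2 fold change -0.52, SE 0.32, adjusted p = 0.297 in edgeR). As in PCDHB14, the control libraries 1 and 2 stood above all others. PCDHAC2 had 25, 22 and 10 reads in the control and 10, 10 and 6 in the Tau libraries, or 0.773, 0.519 and 0.340 against 0.336, 0.420 and 0.220 CPM, with a 95% interval of the log2 fold change of -1.70 to 0.20. For PCDHAC1 the interval was -1.34 to 0.66 and for PCDHA7, whose fitted value was above 0, it was -0.75 to 1.18. The summed alpha level was 5.16, 4.20 and 3.13 CPM in the control and 3.86, 3.07 and 2.86 in the Tau libraries, and the groups overlapped.

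**Figure D4:**
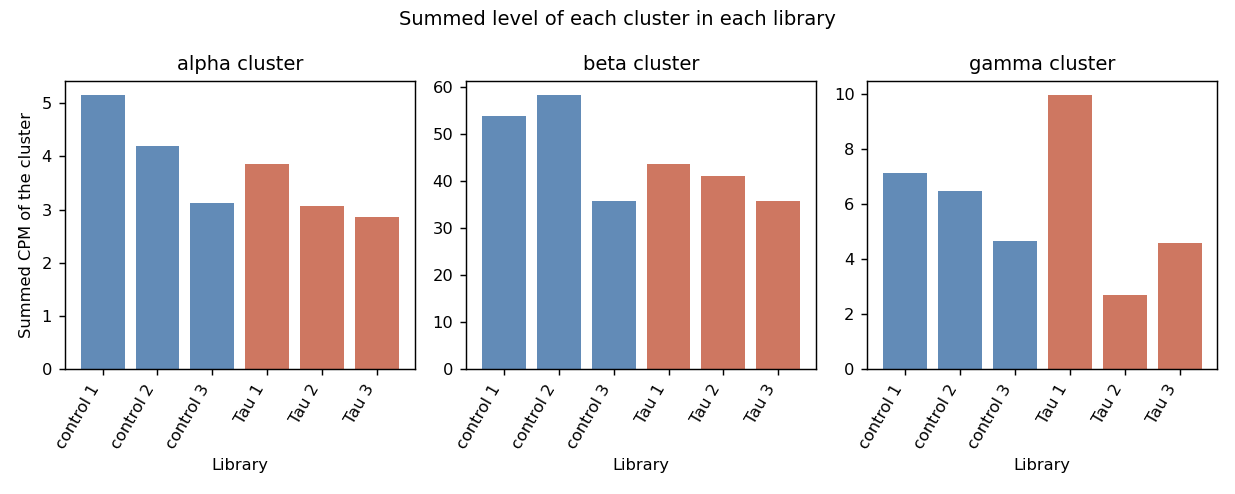
Summed CPM of the 16 alpha, 16 beta and 22 gamma genes in each library, blue bars for control and red bars for Tau, on axes that start at 0 and differ between panels. In the gamma panel Tau replicate 1 stands highest with 9.97 and Tau replicate 2 lowest with 2.69.

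The gamma cluster differed most among the Tau libraries themselves. Its summed level was 7.11, 6.46 and 4.66 CPM in the control and 9.97, 2.69 and 4.58 in the Tau libraries. As a share of all reads of the family in the same library, which does not depend on the scaling between libraries, gamma genes took 10.7, 9.35 and 10.7% in the control and 17.3, 5.75 and 10.6% in the Tau libraries. The mean share was thus close, 10.3 ± 0.784% (SD, n = 3) against 11.2 ± 5.82%, while the spread was wider among Tau libraries. Beta genes took 76.0 to 87.7% in Tau and 81.5 to 84.6% in control libraries, and alpha genes 6.56 to 6.71% and 6.08 to 7.80%.

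PCDHGC3 and PCDHGC4 carried most of that spread. PCDHGC3 had 42, 66 and 29 reads in control and 100, 7 and 33 reads in Tau libraries, or 1.30, 1.56 and 0.987 against 3.36, 0.294 and 1.21 CPM, so that Tau replicate 1 was 11.4 times Tau replicate 2. PCDHGC4 had 12, 23 and 19 reads in the control and 52, 7 and 11 in the Tau libraries. In both genes Tau replicate 1 was the highest and Tau replicate 2 the lowest of all libraries, and the 95% intervals of the log2 fold change were wide, -0.88 to 1.59 and -0.56 to 1.92. PCDHGA7, with 1.30, 1.34 and 0.647 CPM in the control and 1.88, 0.378 and 0.843 in the Tau libraries, followed the same order. Tau replicate 1 was the highest library in 4 of the 6 tested gamma genes and in 9 of all 22.

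PCDHGA1, the first gene of the gamma cluster, came nearest to the thresholds. It had 20, 21 and 11 reads in the control and 8, 2 and 7 in the Tau libraries, or 0.618, 0.495 and 0.375 against 0.269, 0.0840 and 0.257 CPM, so the groups did not overlap. Its log2 fold change was -1.24, with an SE of 0.47 and a 95% interval of -2.26 to -0.23, and its adjusted p in edgeR was 0.106. PCDHGA6 had 0.958, 0.590 and 0.340 CPM in the control and 0.470, 0.462 and 0.513 in the Tau libraries, with an interval of -1.29 to 0.51, and for PCDHGB7 it was -1.23 to 1.11. Among the gamma genes too low to be tested, PCDHGA11 had 5, 3 and 5 reads in the control and 0, 0 and 1 in the Tau libraries, and PCDHGA2 had 10, 22 and 4 against 3, 0 and 7; both were named after their values were seen.

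Some counts rest on sequence that other genes repeat. The aligner kept 1 place per read, and the share of 51-base stretches of unshared exon that recur elsewhere in the genome was 44.9% for PCDHB8, 35.0% for PCDHB10, 25.5% for PCDHB9, 14.5% for PCDHB4 and 11.7% for PCDHB14. The share was 0 for all 5 C-type genes and 6.67% for PCDHGA1. Values of the beta genes with high shares are therefore less certain than those of the C-type genes. Non-coding RNAs are annotated across exons of some members; of these AC005609.4, on the strand opposite to PCDHA10, had 0.27 to 0.96 CPM and was tested without a call, and the others stayed at or below 0.33 CPM in every library. Whether reads were counted by strand is not given in the sources used here, so reads of PCDHA10 and its antisense partner may not be separated.

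Genes that take part in promoter choice were compared in the same fit. Of 16 genes for CTCF, cohesin and its loading and release factors, all tested, 5 fell and 0 rose, beside 8.42% and 9.38% of all tested genes, with a median log2 fold change of -0.44. RAD21, the cohesin subunit that closes the ring, had 161 ± 23.8 CPM (SD, n = 3) in the control and 93.5 ± 3.25 in the Tau libraries (log2 fold change -0.78, adjusted p = 0.0229 in edgeR). STAG1, a cohesin subunit that contacts CTCF, had 39.0 ± 8.04 against 21.9 ± 2.75 CPM (-0.84, adjusted p = 0.0246). The other 3 were STAG2, PDS5B and ESCO1, named after their values were seen. CTCF itself had 46.6 ± 3.58 against 34.6 ± 8.25 CPM and did not pass (adjusted p = 0.170), and HDAC8, which deacetylates cohesin, had 24.9 and 33.5 CPM (adjusted p = 0.157). With the GC trend removed, where 11.1% of all tested genes were called, only STAG1 was called lower, and HDAC8 passed as higher. With that trend removed and a factor for the replicate number 0 were called, beside 4.2% of all tested genes. In the fit that takes the mitochondrial share as a covariate, the called genes were CTCF and RAD21, beside 7.88%. Total counts and limma on log2(RPM + 0.5) each called 10 as lower, CTCF among them, beside 20.5 and 19.5% of all tested genes called in either direction. Without control replicate 1 none of the 16 was called, beside 1.47% of all genes tested in that fit. Without control replicate 2 or any Tau replicate 3 or fewer were, beside 6.29 to 11.5%. Without control replicate 3 it was 8 lower, beside 29.9% called in either direction.

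Among 16 genes of DNA methylation and repression, 2 fell and 0 rose, a count near the 8.42% lower and 9.38% higher of all tested genes. TET2, an enzyme that oxidises methylated cytosine, had 16.1 ± 3.27 CPM in the control and 7.46 ± 0.452 in the Tau libraries (log2 fold change -1.11, adjusted p = 0.0110 in edgeR), and this call stayed under every alternative run. TET3, of the same family, had 23.2 ± 2.22 against 15.6 ± 1.95 CPM (-0.57, adjusted p = 0.0614) and lost its call in 8 of 21 alternatives, among them those without control replicate 1 and without each Tau replicate. DNMT3B, which sets methylation at unused protocadherin promoters in mouse, had 7.74 and 8.97 CPM, and EHMT1 34.3 and 41.2, and neither passed.

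Of 17 partners of the cytoplasmic domains, 1 rose and 2 fell, which is near the 9.38% and 8.42% of all tested genes. With the GC trend removed none of the 17 was called, beside 11.1% of all tested genes. PTK2B, a kinase that alpha and gamma protocadherins inhibit, had 4.15 ± 0.435 CPM in the control and 6.33 ± 0.553 in the Tau libraries (log2 fold change 0.61, adjusted p = 0.0819 in edgeR), a call lost without any 1 of 5 libraries, all but control replicate 3. MARCKS, an actin-linked protein downstream of gamma protocadherins in mouse, had 158 ± 73.0 against 75.2 ± 20.6 CPM (-1.07, adjusted p = 0.0485) and was not called without control replicate 1 or 2 or Tau replicate 2 or 3, nor with the mitochondrial share as a covariate. Its log2 fold change over the alternatives ran from -1.42 to -0.27. WASF1, of the actin-nucleating WAVE complex, had 79.1 ± 11.3 against 54.8 ± 4.39 CPM (-0.53, adjusted p = 0.0727) and was not called without control replicate 1 or any Tau replicate. CYFIP1, of the same complex, had 53.6 and 71.4 CPM and did not pass (adjusted p = 0.153).

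Of 7 proteases that cleave protocadherins, 1 fell, beside 8.42% of all tested genes. ADAM10, which sheds the extracellular part, had 48.05 ± 8.32 CPM in the control and 27.7 ± 1.69 in the Tau libraries (log2 fold change -0.79, adjusted p = 0.0225 in edgeR), a call lost without control replicate 1 and with the GC trend removed. PSENEN and PSEN2, of the gamma-secretase complex, had log2 fold changes of 0.15 and 0.04 that did not pass.

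Protocadherins outside the clusters were also mostly low, with 5 of 12 tested. Of these 1 fell and 0 rose, beside 8.42% and 9.38% of all tested genes. PCDH17 fell, from 3.18 ± 1.05 CPM in the control to 1.24 ± 0.346 in the Tau libraries (log2 fold change -1.36, adjusted p = 0.0275 in edgeR), a call lost without control replicate 1, with the mitochondrial share as a covariate and with the GC trend removed beside a factor for the replicate number. PCDH15 had 0.919 and 1.45 CPM and PCDH9 3.09 and 2.24, and neither passed. PCDH15 did pass as higher with the GC trend removed, where 11.1% of all tested genes were called. Among 8 tested classical cadherins and catenins of 18, 1 rose and 0 fell, beside 9.38% and 8.42% of all tested genes. JUP, which encodes plakoglobin, rose from 21.4 ± 2.69 to 31.6 ± 4.70 CPM (0.56, adjusted p = 0.0687 in edgeR). This call was lost without control replicate 1 or any Tau replicate, with the GC trend removed and with total counts. CDH2, the N-cadherin of neurons, had 61.1 and 51.3 CPM and did not pass, nor did CDH11 or CTNNB1. CDH11 passed as higher in the same fit with the GC trend removed.

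Of 25 tested genes among the pseudogenes and neighbours of the locus, 2 rose and 0 fell, about the 9.38% of all tested genes called higher, and both lie beyond the gamma cluster. FCHSD1 had 25.7 ± 6.83 CPM in the control and 46.7 ± 6.14 in the Tau libraries (log2 fold change 0.86, adjusted p = 0.0299 in edgeR), and RELL2 had 18.9 ± 4.65 against 30.3 ± 2.72 CPM (0.69, adjusted p = 0.0510). Without control replicate 1 or Tau replicate 2 neither was called, and RELL2 was also lost without control replicate 2 or Tau replicate 3 and with the GC trend removed. Neither was called with limma on log2(RPM + 0.5), with total counts, with the mitochondrial share as a covariate, or with the GC trend removed beside a factor for the replicate number, and total counts called NDFIP1 as lower instead. TAF7, an intronless gene between the beta and gamma clusters, had 93.5 and 64.6 CPM, with an SD of 38.9 in the control libraries, and NDFIP1 had 96.8 and 74.2; neither passed.

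The cell-state markers moved in part. Among the noradrenergic markers DBH, which makes noradrenaline, fell from 241 ± 69.1 to 115 ± 42.6 CPM (log2 fold change -1.07, adjusted p = 0.0344 in edgeR), a call lost without control replicate 1, Tau replicate 2 or Tau replicate 3, or with mitochondrial share as a covariate. PHOX2A, with 167 and 238 CPM, did not pass. It was called higher with the mitochondrial share as a covariate and without control replicate 2. These fits called 7.88 and 10.3% of all genes tested in them. Summed over the 8 markers, the level was 1257 to 1553 CPM in the control and 1110 to 1231 in the Tau libraries. None of 6 tested mesenchymal markers was called, beside 17.8% of all tested genes, and their median log2 fold change was 0.20. VIM, with 490 ± 15.3 CPM in the control and 442 ± 32.8 in the Tau libraries, made up nearly all of the summed level of 490 to 516 against 427 to 480 CPM and was the only tested one with a fitted value below 0. NOTCH2, with 9.36 and 13.4 CPM, and FOSL1, with 0.620 and 1.09 CPM, had all Tau libraries above all control libraries, which held for 16.1% of all tested genes. With the GC trend removed NOTCH2 passed as higher, and without control replicate 3 FOSL1 did. Of the glial markers S100B was tested without a call, with a sum of 2.47 to 2.86 against 2.71 to 3.22 CPM over the list. The part of these markers in the protocadherin values was not tested.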

How the data were processed

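RNA-seq of 6 SH-SY5Y libraries was used, all samples of the series. Per the labels and the study's methods, reads came from bcl2fastq 1.8.4, and the authors mapped them to GRCh38 in TopHat2 2.1.0, keeping 1 alignment per read, and made the deposited count per gene with featureCounts 1.5.0 in an Ensembl annotation. The deposited RPM values are these counts over the library total, by the authors, and the deposited RPKM values divide RPM by a gene length. The labels name a TruSeq stranded kit and the paper another directional kit; how reads that overlap several genes were treated is not given in the sources used here. Counts were used for all results and RPM for 1 alternative; RPKM was read only for the gene length it implies, which was within 5% of the GENCODE 44 exon length for 50 of 52 members with reads.

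Counts were analysed in R 4.3.3 with edgeR 4.0.16 (TMM scaling, filterByExpr, quasi-likelihood F test of Tau against control with no covariate, Benjamini-Hochberg adjustment over 16778 of 58395 genes), limma 3.58.1 and DESeq2 1.42.0. Genes were called at an adjusted p under 0.1 and a log2 fold change beyond 0.5 in size. The fit was tested on simulated data. The members and gene lists were chosen with earlier results of these data known. Named genes are MAPT, all C-type members, per cluster the 5 highest in CPM and the 4 lowest p in each direction, and per other list the 2 lowest p in each direction; exceptions are stated, and some genes of these lists are not reported here. Unshared exon is counted on the same strand only, a choice made after seeing the annotation, since an antisense RNA covers most of PCDHA1. Alternatives changed the tool, scaling, filter, thresholds, GC trend (lowess, span 0.3), mitochondrial share as a covariate, a factor for the replicate number, and left out 1 library at a time. Intervals are 95%.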

Additional observations from a re-analysis of the deposited data

How the results depend on the processing

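Of 21 alternatives, 18 called no clustered protocadherin. Limma on log2(RPM + 0.5) called 1, PCDHGA1 (1 gamma), total counts in edgeR 2, PCDHGA1 and PCDHB14 (1 gamma, 1 beta), and leaving out 1 library 0 to 4 (alpha 0 to 1, beta 0 to 2, gamma 0 to 1), all lower in Tau. Total counts moved the median log2 fold change of all genes from -0.03 to -0.36. Medians moved as follows: alpha -0.76 with total counts, -0.13 with the mitochondrial share as a covariate, -0.65 to -0.24 without 1 library; beta -0.42 with limma on RPM, -0.56 with total counts and 0.15 with the mitochondrial share; gamma 0.63 with the mitochondrial share and -0.64 to 0.29 without 1 library, the lowest without Tau replicate 1. With the mitochondrial share as a covariate 11 of 25 members lay below 0, and PCDHGC3 and PCDHGC4 had an unadjusted p under 0.05 with none called in edgeR. Calls over all genes were 1615 at a false discovery rate of 0.05, 1861 with the GC trend removed (1861 also with the GC content of unshared bases, chosen after seeing the data), 705 with the replicate block and that trend removed, 1322 with the mitochondrial share, and 250 to 5144 without 1 library, the extremes being control replicate 1 and control replicate 3, against 2986. Causes were not tested.

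Deviations of same-numbered libraries from their group means had correlations of -0.15, -0.46 and 0.17. These values cannot show whether same-numbered libraries were made together, and the sources used here do not say. The replicate block gave 2211 calls and 0 among the members. Among 54 named genes, 93 of 1125 values lost and 25 gained a call. The sign of the fitted value turned in at least 1 alternative for 9 of 21 named members, none of them called. The 21 include PCDHGC5 and PCDHA6, which were too low to be tested and had no main fitted value that could turn. Without a low-count filter, 52 members were tested and 0 called; 5 had an unadjusted p under 0.05 in edgeR. Depth limits the precision of the 29 members with 46 reads or fewer.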
